A study of Mus musculus with 24 samples.

Results

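Transcripts of 10 genes that encode islet and gut peptide hormones other than insulin were followed in βTC3 cells, an insulin-producing line from the islet tumours of Rip-Tag2 mice. The 10 genes, Gcg, Sct, Gip, Cck, Gast, Pdyn, Gal, Sst, Ppy and Pyy, were taken by name from 46517 gene entries. Every culture carried the plasmid PB-31, alone in the control line, with miR-137 in the miR-137 line and with the miR-23b cluster in the miR-23b line. Each line was sampled after 7 d with doxycycline (DOX) at 2 µg/ml and after 7 d in plain medium (no DOX). Both miRNA lines were also sampled after 7 d with DOX followed by 7 d without it (withdrawn). The 8 groups held 3 polyA RNA libraries each, from wells plated in triplicate. There was no withdrawn control group, withdrawn cultures were kept for longer than the others, and the labels do not say whether each line is a clone or a pool. They also do not say whether triplicate wells came from separate passages, so the p-values measure the spread between these libraries, which may be technical.

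Islets divide hormone production between cell types. Beta cells make insulin, alpha cells glucagon, delta cells somatostatin and PP cells pancreatic polypeptide, while enteroendocrine cells of the gut make secretin, cholecystokinin, gastrin, the glucagon-like peptides and the incretin GIP. Each peptide is cut from a larger precursor in dense-core granules, often amidated at its end, and released to act on a G protein-coupled receptor. Neuroendocrine tumours of the pancreas are known for making hormones that the cell of origin does not make. The study compared what happened to gene expression with DOX, when the plasmid's miRNAs are switched on, and after its removal. The miR-23b cluster holds 3 miRNA genes, for miR-23b, miR-27b and miR-24.

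A miRNA mainly pairs with 3′ UTRs through its seed, bases 2 to 8. The mature sequences of 3 of the induced miRNAs are shown from RefSeq (GRCm38.p6) because the search for seed matches in the hormone transcripts rests on them, with the seed in capitals.
mmu-miR-137-3p: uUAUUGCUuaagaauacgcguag
mmu-miR-27b-3p: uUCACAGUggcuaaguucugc
mmu-miR-24-3p: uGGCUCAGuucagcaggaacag
The 3 seeds differ from each other. The third miRNA of the miR-23b cluster, miR-23b, was not analysed here, so the matches cover miR-27b and miR-24 of that cluster. The longest annotated 3′ UTR (GENCODE M21) of each hormone gene was searched for the 7 letters that pair with bases 2 to 8. These UTRs were short, 97 to 448 bases in 9 of the 10 genes, while that of Pdyn had 1436 bases and the median over 12979 tested genes with a 3′ UTR was 1201 bases. The miR-137 seed match AGCAATA was in 0 of the 10 hormone UTRs and in 10.6% of the 12979. The miR-27b match ACTGTGA was in Pdyn alone, against 17.9% of all, and the miR-24 match CTGAGCC was also in Pdyn alone, against 19.6% of all. The Pdyn matches, in capitals with their surroundings, started at UTR bases 407 and 926, and the miR-24 match was followed by an A.
Pdyn, miR-27b match: ttgcatgggaACTGTGAgatatgcagt
Pdyn, miR-24 match: agccatttggCTGAGCCatttggccca
A match is a description of the letters, not a measured site, and the absence of one says only that these letters were not in this UTR. Of the 8 differences between the miR-23b and control responses described further on, that of Pdyn was the largest in size, at -1.18 on the log2 scale. Pdyn itself rose with DOX in the miR-23b line, by 0.76, and gave -0.04 there for withdrawn against 7 d DOX. The part of the matches in these values was not tested.

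Promoters were read from RefSeq (GRCm38.p6), 250 bases before to 50 bases after the start site, and 12 windows covered the 10 genes. Those of Gcg, Sct, Cck and Sst are printed. All of these genes rose with DOX in every line. Pdyn did so too, but its windows, which held none of the motifs searched for, are not printed. Sst was the only one of the 8 tested that was lower than without DOX after withdrawal of DOX in both lines. Capitals mark a match to TGACGTCA or TGACG, the full and partial cAMP response element, on either strand, or to TATAAA on the sense strand. TGACG lies within TGACGTCA. No hormone window held TGANTCA, the AP-1 motif on either strand.
Gcg promoter, chr2:62483604-62483903, minus strand: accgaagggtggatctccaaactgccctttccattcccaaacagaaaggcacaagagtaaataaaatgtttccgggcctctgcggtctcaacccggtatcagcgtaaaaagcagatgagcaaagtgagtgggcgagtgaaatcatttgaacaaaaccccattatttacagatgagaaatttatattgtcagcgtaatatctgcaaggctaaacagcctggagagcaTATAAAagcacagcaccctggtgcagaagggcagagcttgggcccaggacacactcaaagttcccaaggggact
Sct promoter, chr7:141279084-141279383, minus strand: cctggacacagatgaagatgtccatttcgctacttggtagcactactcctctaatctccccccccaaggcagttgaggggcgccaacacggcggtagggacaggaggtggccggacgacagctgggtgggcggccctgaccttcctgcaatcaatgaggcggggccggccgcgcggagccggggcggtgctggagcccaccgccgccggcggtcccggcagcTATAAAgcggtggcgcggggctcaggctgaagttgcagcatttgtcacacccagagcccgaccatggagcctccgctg
Cck promoter, chr9:121495645-121495944, minus strand: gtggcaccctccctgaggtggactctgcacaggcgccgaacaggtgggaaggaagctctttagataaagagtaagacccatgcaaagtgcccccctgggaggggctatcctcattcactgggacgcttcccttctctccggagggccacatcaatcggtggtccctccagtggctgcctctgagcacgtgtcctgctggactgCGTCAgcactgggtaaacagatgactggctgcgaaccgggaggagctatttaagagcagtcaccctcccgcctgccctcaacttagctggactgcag
Sst promoter, chr16:23890795-23891094, minus strand: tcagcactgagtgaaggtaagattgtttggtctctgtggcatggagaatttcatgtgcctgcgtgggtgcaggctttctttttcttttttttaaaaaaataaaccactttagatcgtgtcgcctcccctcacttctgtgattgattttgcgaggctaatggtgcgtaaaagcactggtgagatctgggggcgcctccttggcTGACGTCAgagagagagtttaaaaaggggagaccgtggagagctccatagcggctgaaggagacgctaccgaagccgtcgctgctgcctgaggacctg
The full element TGACGTCA was in the Sst window only, 48 bases before the start, against 1.79% of 32851 promoter windows of the same length. TGACG was in the Sst, Cck and Gal windows, in Cck 47 bases before the start as its reverse complement CGTCA, against 20.8% of all windows. TATAAA was in those of Gcg, Sct and Ppy, 24, 28 and 31 bases before the start, against 8.32% of all. TGANTCA was in 7.81% of all windows. The windows of Pdyn, Gip, Gast and Pyy held none of the 4 motifs as spelled here.

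Libraries held 15759849 to 24144737 reads counted in genes. The induced loci followed the labels: Mir23b stood at 49.8 to 56.2 CPM (counts scaled to a common library size) in DOX-treated cells of the miR-23b line and at 0.229 CPM or less in all other libraries, and Gm26871, the transcript at the Mir137 locus, stood at 121 to 126 CPM in the miR-137 line with DOX and at 6.15 CPM or less elsewhere. In control libraries with DOX 20898 to 21066 genes had a count, while no other library had more than 20336, and every difference from the control response includes them. All 9 beta cell markers reached 1 CPM in every group, with sums of 11770 to 17530 CPM, lowest in the miR-23b line with DOX. Of the alpha cell markers 5 of 9 reached 1 CPM, with sums of 577 to 750.03 CPM, but Irx1 stayed at or below 0.386 CPM and Pou3f4 at or below 0.0475 CPM. Of the delta cell markers 3 of 5 did so in at least 1 library, with Hhex at or below 0.123 CPM. Sst itself was among them, at 0.700 to 2.90 CPM. Of the PP cell markers 2 of 4 reached 1 CPM. Exocrine pancreas markers summed to 3.66 to 7.76 CPM, fibroblast markers to 2.30 to 4.52 CPM, leukocyte markers to 1.96 to 4.38 CPM and endothelial markers to 0.167 to 1.43 CPM, the last highest in the control line with DOX. In at least 1 library 8 of 10 enteroendocrine markers reached 1 CPM, among them the 4 hormone genes Sct, Gip, Cck and Gast. Reg4 and Fabp2 stayed at or below 0.0528 CPM. The enteroendocrine sums, 43.1 to 159 CPM, are nearly all these 4 hormone genes: the other 6 markers summed to 3.14 to 4.14 CPM with and 2.96 to 3.23 CPM without DOX in the miR-137 line, 3.20 to 3.75 and 2.10 to 3.09 CPM in the miR-23b line, and 3.38 to 3.66 and 2.80 to 3.39 CPM in the control line, and their part in the results was not tested. In bulk RNA, fewer cells that express a gene and less RNA of it per cell cannot be told apart.

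Of the 10 hormone genes 8 passed the filter on low counts. Compared per length on the authors' TPM scale, which corrects for transcript length, secretin, proglucagon, GIP and cholecystokinin mRNA made up most of the total in every group. Without DOX the 10 transcripts summed to 91.1 ± 6.41 TPM in the miR-137 line, 105 ± 6.97 TPM in the miR-23b line and 105 ± 8.77 TPM in the control line (SD, n = 3 each). With 7 d DOX the sums were 234 ± 10.02 TPM in the miR-137 line, 286 ± 10.1 TPM in the miR-23b line and 248 ± 16.6 TPM in the control line. After withdrawal they were 196 ± 3.74 TPM in the miR-137 line and 196 ± 6.16 TPM in the miR-23b line. In all 3 lines the no DOX libraries lay below all others, and within each miRNA line the withdrawn libraries lay between the other conditions, without overlap.

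The makeup of the sum differed by line. With DOX, secretin mRNA was 18.2% of the summed TPM in the miR-137 line, 46.0% in the miR-23b line and 30.5% in the control line. Proglucagon mRNA was 27.9%, 15.4% and 19.8% of the sum in those lines. GIP mRNA was 23.4% in the miR-137 line, 8.61% in the miR-23b line and 18.9% in the control line. After withdrawal Gcg made up 33.1% in the miR-137 line and 35.2% in the miR-23b line. Gast, Sst, Ppy and Pyy together stayed a small part, none of them above 1.79% in any group.

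**Figure D1:**
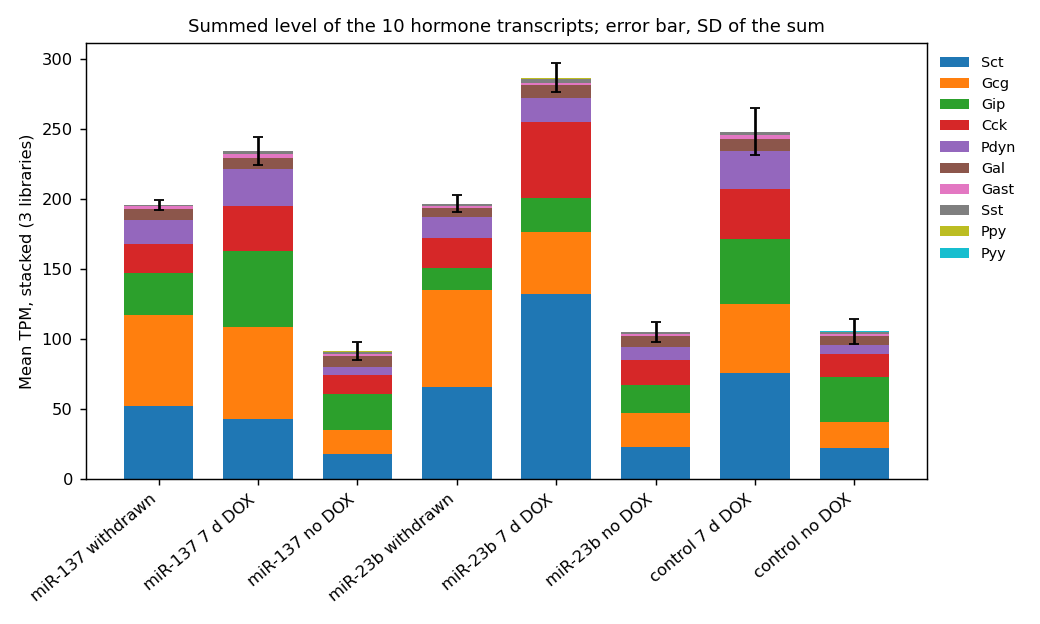
Mean TPM of the 10 hormone transcripts, stacked by gene (y axis, TPM) for the 8 groups (x axis, 3 libraries each), with error bars for the SD of the sum. The sums with 7 d DOX, 234, 286 and 248 TPM, stand above those without DOX, 91.1, 105 and 105 TPM, in the miR-137, miR-23b and control lines, and secretin takes the largest share in the miR-23b line with DOX.

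With 7 d DOX every tested hormone gene that passed the test was higher than without DOX, in all 3 lines. The adjusted p-values here come from edgeR's quasi-likelihood test with Benjamini-Hochberg adjustment over 14866 genes, and a gene counts as changed below 0.05. In the miR-137 line 7 of 8 rose, where 21% of all genes tested were higher, in the miR-23b line 5 of 8, where 28.8% were, and in the control line 8 of 8, where 18.5% were. None fell in any line, while 21.8%, 28.6% and 19.3% of all genes were lower in those lines. The hormone genes were chosen with earlier results of these data known, so these counts are not those of a list picked beforehand. The median log2 fold change over the 8 genes was 1.20 in the miR-137 line, 0.79 in the miR-23b line and 0.92 in the control line, against medians over all genes tested within 0.01 of 0. On log2(TPM + 1) with limma, 67% of the calls among all genes in the miR-23b line were higher, against 50.2% with edgeR, and 7 of the 8 hormone genes passed. No date, plate or run is labelled, so an effect of DOX cannot be told apart from a batch that untreated cultures may share, and the same holds for withdrawn against no DOX cultures. Because the control line shows the rises too, the lines' responses were also compared with each other.

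The difference of the miR-137 response from the control response passed the test for 4 of 8 hormone genes, 2 higher and 2 lower, where 5.9% of all genes were higher and 4.78% lower. The miR-23b response differed from the control response for 4 of 8, 1 higher and 3 lower, where 18.1% were higher and 19.4% lower. Between the miRNA lines, the miR-137 response minus the miR-23b response passed for 4 of 8, 3 higher and 1 lower, where 18.4% were higher and 16.8% lower. Both differences from the control response share the control libraries. With limma on log2(TPM + 1) the share of calls that were higher was 69.9% for miR-23b minus control, against 48.3% with edgeR, and 26.1% for miR-137 minus miR-23b, against 52.3%, with 4 hormone genes called in each.

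**Figure D2:**
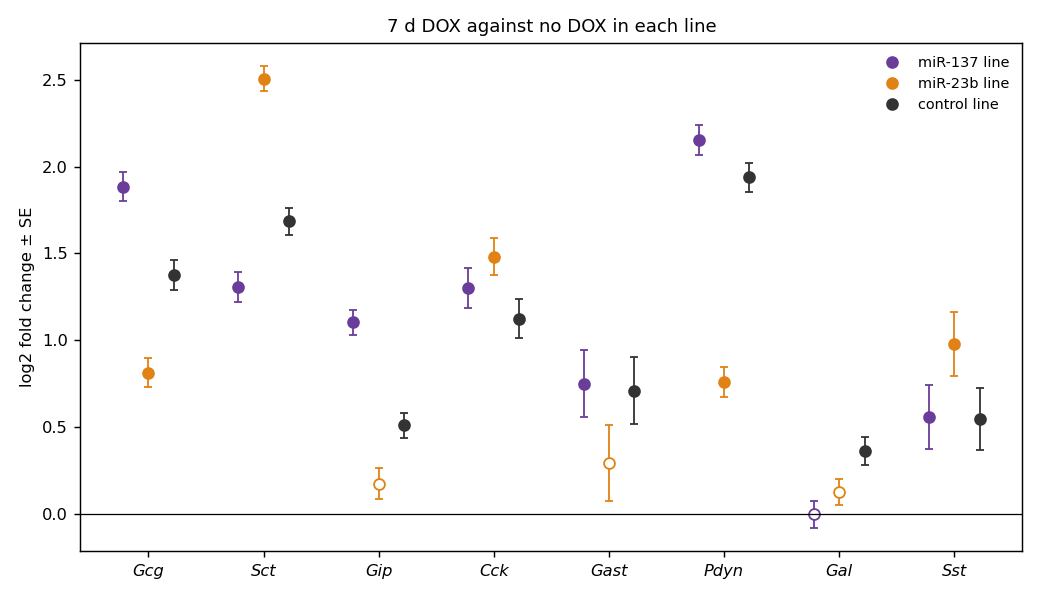
Log2 fold change of 7 d DOX against no DOX (y axis) for the 8 tested hormone genes (x axis) in the miR-137, miR-23b and control lines, with bars for the SE and open circles where the adjusted p was not below 0.05. Sct stands highest in the miR-23b line at 2.51, Pdyn stands at 2.15 in the miR-137 line and 1.94 in the control line but at 0.76 in the miR-23b line, and Gip is raised most in the miR-137 line at 1.10.

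After withdrawal the hormone genes split. Against 7 d DOX, 1 of 8 was higher and 5 were lower in the miR-137 line, where 14.7% of all genes were higher and 14.8% lower, and 1 of 8 was higher and 5 lower in the miR-23b line, where 26.4% were higher and 25.8% lower. The gene that was higher was Sct in the miR-137 line and Gcg in the miR-23b line. Against no DOX, 5 of 8 were higher and 1 was lower in the miR-137 line, where 21.6% and 21.7% of all genes were, and 4 of 8 were higher and 3 lower in the miR-23b line, where 19.2% and 20.6% were. Sst was lower in both lines, and Gip and Gal were lower as well in the miR-23b line. With limma on log2(TPM + 1) the share of calls that were higher was 27.8% for withdrawn against 7 d DOX in the miR-23b line, against 50.6% with edgeR, and 39.5% for withdrawn against no DOX in the miR-137 line, against 49.9%. Comparisons of withdrawn with 7 d DOX and with no DOX cultures share the withdrawn libraries.

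**Figure D3:**
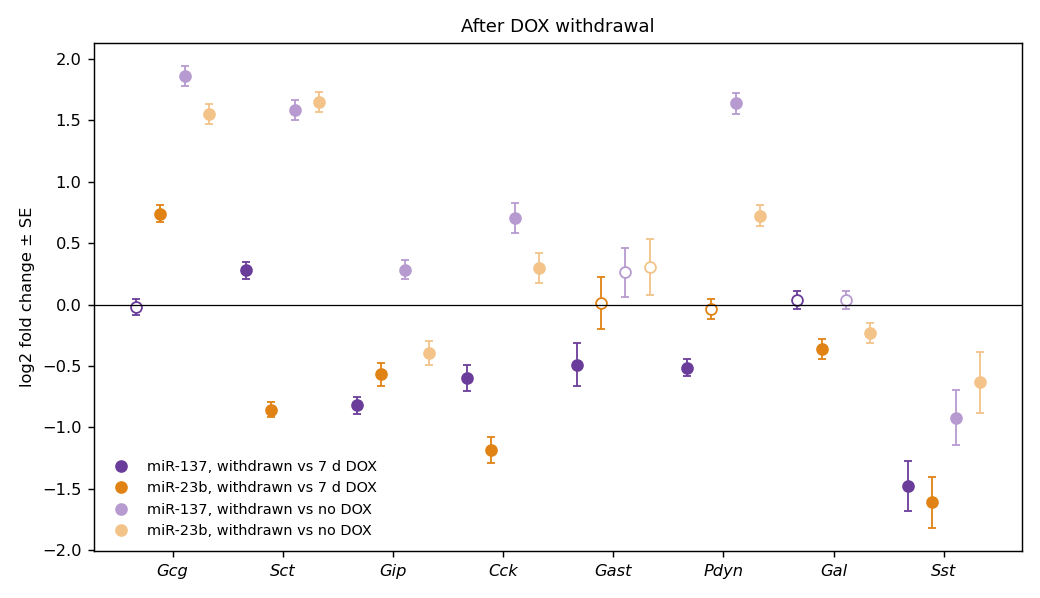
Log2 fold change of withdrawn cultures against 7 d DOX (dark) and against no DOX (pale) for the 8 tested hormone genes in the miR-137 line (purple) and the miR-23b line (orange), with bars for the SE and open circles where the adjusted p was not below 0.05. Gcg, Sct and Pdyn stay above the no DOX level in both lines, and Sst lies below both other conditions.

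Single-gene levels are given as TMM-scaled CPM, in replicate order 1 to 3, and coordinates are GRCm38. The first group of hormones, proglucagon, secretin and GIP, belongs to one peptide family. Gcg (ENSMUSG00000000394, chromosome 2, minus strand, 62474530 to 62483650) encodes proglucagon, the precursor of glucagon in alpha cells and of the glucagon-like peptides in gut L cells. In the miR-137 line its level was 57.9, 53.5 and 60.9 CPM after withdrawal, 55.6, 63.1 and 56.0 CPM with 7 d DOX and 16.7, 15.2 and 15.6 CPM without DOX. In the miR-23b line it was 63.2, 62.5 and 60.2 CPM after withdrawal, 41.6, 35.5 and 33.7 CPM with 7 d DOX and 24.2, 21.1 and 18.3 CPM without DOX. Control cells had 49.2, 41.8 and 39.2 CPM with 7 d DOX and 17.7, 16.0 and 16.3 CPM without DOX. The libraries with DOX lay above those without DOX in each line, the withdrawn libraries of the miR-137 line overlapped those with DOX, and the withdrawn libraries of the miR-23b line all lay above those with DOX. The 3 groups with the highest means, miR-23b withdrawn, miR-137 with 7 d DOX and miR-137 withdrawn, overlapped each other in that order and lay clear of the control and miR-23b lines with DOX, which overlapped each other.

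**Figure D4:**
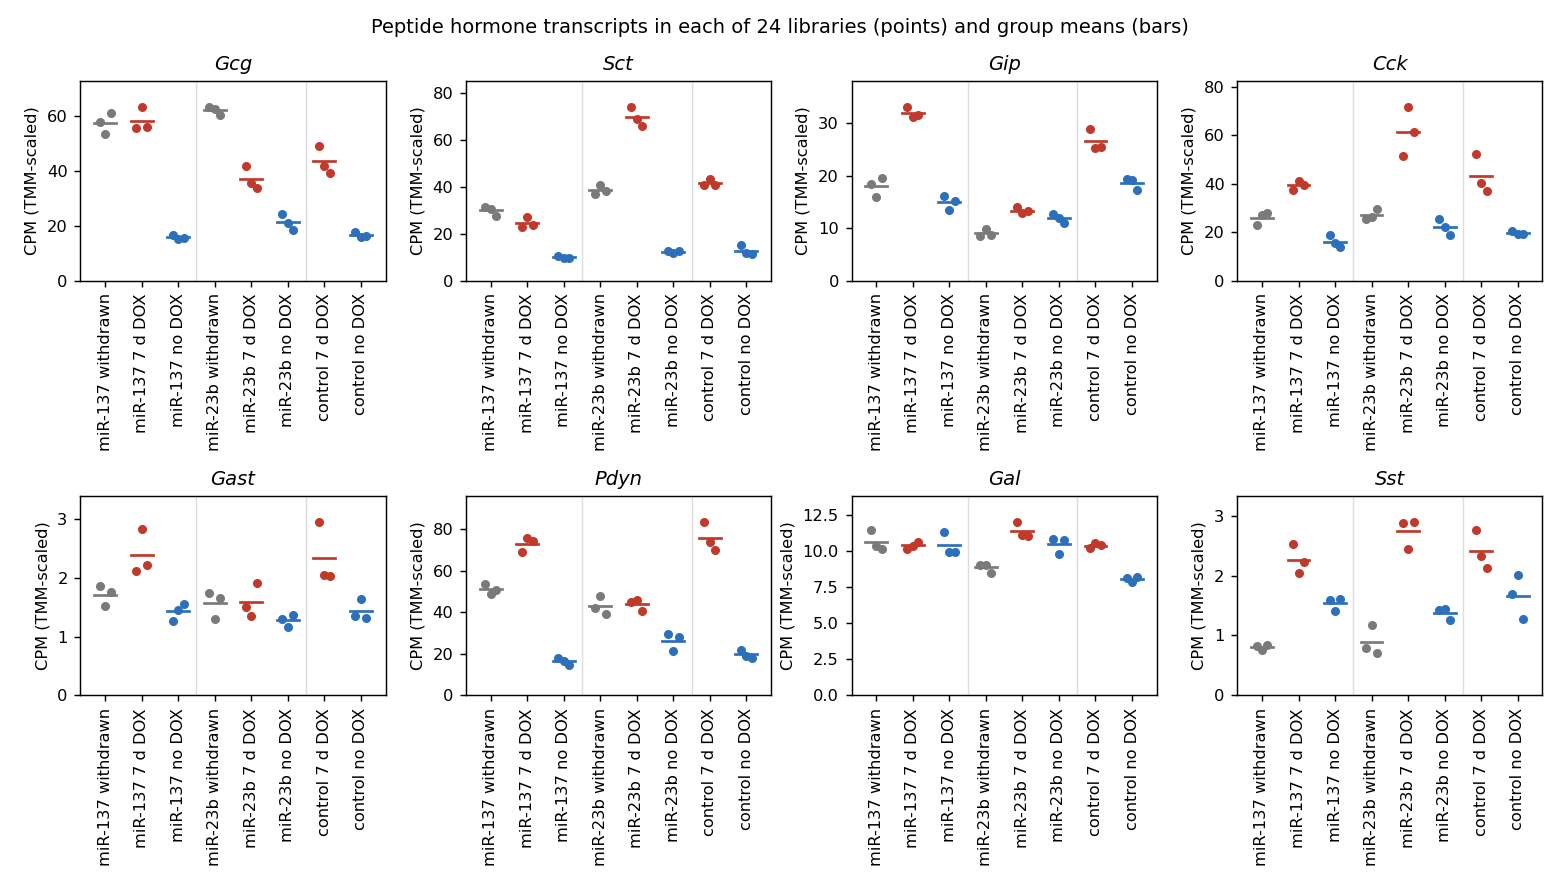
Levels of the 8 tested hormone genes in TMM-scaled CPM (y axis, from 0) in each of the 24 libraries (points) by group (x axis), with group means as bars; grey is withdrawn, red 7 d DOX and blue no DOX. Red points lie above the blue points of the same line for Gcg, Sct, Cck, Pdyn and Sst in all 3 lines, and grey points lie below the blue points for Sst.

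With 7 d DOX Gcg rose by a log2 fold change of 1.89 (SE 0.08) in the miR-137 line (3.69-fold), 0.81 (SE 0.08) in the miR-23b line and 1.38 (SE 0.09) in the control line, with adjusted p of 9.49e-21, 1.16e-10 and 3.68e-16. The response of the miR-137 line exceeded that of the control line by 0.51 (SE 0.12) on the log2 scale (adjusted p = 0.00484). The miR-23b response was smaller than the control response, with a difference of -0.56 (SE 0.12, adjusted p = 0.000329). Between the miRNA lines the difference was 1.07 (SE 0.12). Withdrawn against 7 d DOX, Gcg rose in the miR-23b line by 0.74 (SE 0.07, adjusted p = 3.76e-11), and in the miR-137 line the log2 fold change was -0.02 (SE 0.07, adjusted p = 0.844). Withdrawn against no DOX it was higher in both lines, by 1.86 (SE 0.08) in the miR-137 line and 1.55 (SE 0.08) in the miR-23b line. Of the 9 alpha cell markers 5 were tested, and with DOX 1 was higher and 2 lower in the miR-137 line, 2 higher and 3 lower in the miR-23b line, and 1 higher and 2 lower in the control line, with median log2 fold changes of -0.17, -0.49 and -0.09. Ttr, which encodes the thyroid hormone carrier transthyretin, was the marker higher in all 3 lines, while Irx1 and Pou3f4, transcription factor genes, stayed at or below 0.386 and 0.0475 CPM. Ttr averaged 264 CPM with DOX and 106 CPM without DOX in the miR-137 line, 231 and 124 CPM in the miR-23b line, and 216 and 103 CPM in the control line. Gc, the vitamin D binding protein gene, was lower in all 3 lines, with means of 113 CPM with DOX and 179 CPM without it in the miR-137 line, 80.3 and 138 CPM in the miR-23b line, and 64.8 and 139 CPM in the control line. Slc7a2, an amino acid transporter gene, was also lower in all 3, with log2 fold changes of -0.33 (SE 0.03) in the miR-137 line, -0.55 (SE 0.03) in the miR-23b line and -0.32 (SE 0.03) in the control line. The 3 genes whose log2 CPM was most like that of Gcg over the 24 libraries, of 10456 compared, were Gng12 (Pearson's r = 0.967), Ttr (0.965) and Cbs (0.964), over libraries that share depths and group differences. The part of other cell types in the level of Gcg was not tested.

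Sct (ENSMUSG00000038580, chromosome 7, minus strand, 141278330 to 141279133) encodes secretin, which duodenal S cells release and which drives bicarbonate secretion by the pancreas. The miR-137 line had 31.6, 30.7 and 27.8 CPM after withdrawal, 22.7, 27.3 and 23.9 CPM with 7 d DOX and 10.6, 9.83 and 9.58 CPM without DOX. Cells of the miR-23b line had 36.9, 40.8 and 38.4 CPM after withdrawal, 74.2, 69.0 and 66.1 CPM with 7 d DOX and 12.5, 11.7 and 12.9 CPM without DOX. Control libraries held 40.7, 43.5 and 40.8 CPM with 7 d DOX and 15.3, 11.8 and 11.6 CPM without DOX. The miR-23b line with DOX stood above every other library, the control line with DOX overlapped the withdrawn miR-23b line, and no library without DOX overlapped one with DOX or after withdrawal.

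The rise of Sct with DOX was 1.31 (SE 0.09) on the log2 scale in the miR-137 line, 2.51 (SE 0.07) in the miR-23b line (5.68-fold) and 1.69 (SE 0.08) in the control line, with adjusted p of 2.67e-15, 6.67e-27 and 3.94e-20. It was the gene with the largest rise of the 8 in the miR-23b line, and its response there exceeded the control response by 0.82 (SE 0.11, adjusted p = 2.85e-07). The miR-137 response was smaller than the control response, with a difference of -0.38 (SE 0.12, adjusted p = 0.0373). That call was lost on leaving out any of 7 of the 12 libraries, which were miR-137 with DOX replicates 1 and 3, miR-137 without DOX replicates 1 and 2, control with DOX replicate 2 and control without DOX replicates 2 and 3 (log2 -0.39 to -0.30, adjusted p 0.0622 to 0.135), and in a fit of its own 4 groups (-0.38, adjusted p = 0.0504). Between the miRNA lines, the miR-137 response minus the miR-23b response was -1.20 (SE 0.12, adjusted p = 3.08e-10). After withdrawal Sct fell in the miR-23b line, with a log2 fold change of -0.86 (SE 0.06) against 7 d DOX, and rose in the miR-137 line, by 0.28 (SE 0.07, adjusted p = 0.00210). Against no DOX the withdrawn cultures were higher by 1.59 (SE 0.08) in the miR-137 line and 1.65 (SE 0.08) in the miR-23b line. The genes most like Sct over the 24 libraries were Parp8 (r = 0.982), Etv1 (0.975) and Chst11 (0.960).

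Gip (ENSMUSG00000014351, chromosome 11, plus strand, 96024545 to 96030831) encodes the incretin of duodenal K cells, glucose-dependent insulinotropic polypeptide, which raises insulin release after a meal. The miR-137 libraries held 18.4, 16.0 and 19.6 CPM after withdrawal, 33.1, 31.1 and 31.5 CPM with 7 d DOX and 16.1, 13.4 and 15.3 CPM without DOX. The miR-23b libraries held 8.60, 9.86 and 8.65 CPM after withdrawal, 14.0, 12.9 and 13.2 CPM with 7 d DOX and 12.7, 11.9 and 11.0 CPM without DOX. The control libraries had 29.0, 25.3 and 25.4 CPM with 7 d DOX and 19.5, 19.1 and 17.3 CPM without DOX. Gip was lower in the miR-23b line than in the other lines sampled under the same condition, and its withdrawn libraries were the lowest of all groups, below those without DOX.

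With DOX the log2 fold change of Gip was 1.10 (SE 0.07) in the miR-137 line (adjusted p = 2.24e-15), 0.17 (SE 0.09) in the miR-23b line (adjusted p = 0.0954) and 0.51 (SE 0.07) in the control line (adjusted p = 3.78e-07). The miR-23b value did not pass the test, although its libraries with and without DOX did not overlap, and limma on log2(TPM + 1) put it at 0.27 with an adjusted p of 0.0112. The miR-137 response exceeded the control response by 0.59 (SE 0.10, adjusted p = 0.000131) and the miR-23b response by 0.93 (SE 0.12, adjusted p = 4.15e-08). The miR-23b response was smaller than that of control cells, with a difference of -0.34 (SE 0.12, adjusted p = 0.0192), a call lost without miR-23b with DOX replicate 2, miR-23b without DOX replicate 1, control with DOX replicate 1 or control without DOX replicate 3 (log2 -0.31 to -0.27), and with limma on log2(TPM + 1) (-0.25). Withdrawn against 7 d DOX, Gip fell in both lines, with log2 fold changes of -0.82 (SE 0.07) in the miR-137 line and -0.57 (SE 0.10) in the miR-23b line. Against no DOX it was higher in the miR-137 line, by 0.28 (SE 0.08), where the libraries overlapped and the call was lost without miR-137 withdrawn replicate 3 or miR-137 without DOX replicate 2 (log2 0.21 and 0.20), and lower in the miR-23b line, at -0.40 (SE 0.10, adjusted p = 0.00155). Igsf8 (r = 0.923) and Gnai2 (0.889) were the genes most like Gip over the 24 libraries.

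Cholecystokinin and gastrin share the end of their peptide sequence and a receptor. Cck (ENSMUSG00000032532, chromosome 9, minus strand, 121489824 to 121495694) encodes cholecystokinin, which gut I cells release to empty the gallbladder and stimulate pancreatic enzyme secretion. Its level in the miR-137 line was 22.9, 27.3 and 27.9 CPM after withdrawal, 37.6, 41.0 and 39.6 CPM with 7 d DOX and 18.7, 15.5 and 13.8 CPM without DOX. Its level in the miR-23b line was 25.6, 26.3 and 29.5 CPM after withdrawal, 51.6, 71.7 and 61.3 CPM with 7 d DOX and 25.3, 22.3 and 18.8 CPM without DOX. Its level in control cells was 52.4, 40.5 and 36.9 CPM with 7 d DOX and 20.6, 19.4 and 19.4 CPM without DOX. The libraries with DOX of the 3 lines lay above all others, with the miR-23b and control lines overlapping each other, as did the control and miR-137 lines.

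Cck rose with DOX by 1.30 (SE 0.12) on the log2 scale in the miR-137 line, 1.48 (SE 0.11) in the miR-23b line and 1.12 (SE 0.11) in the control line, with adjusted p of 7.2e-12, 4.6e-15 and 1.19e-10. No difference between the lines' responses passed the test: the miR-137 response minus the control response was 0.18 (SE 0.17, adjusted p = 0.567), the miR-23b response minus the control response 0.36 (SE 0.16, adjusted p = 0.0706), and the miR-137 response minus the miR-23b response -0.18 (SE 0.16, adjusted p = 0.409). The second of these passed without miR-23b with DOX replicate 1, miR-23b without DOX replicate 1 or control with DOX replicate 1 (0.45 to 0.52), and without a filter on low counts (0.37). After withdrawal Cck was lower than with DOX in both lines, with log2 fold changes of -0.60 (SE 0.10) in the miR-137 line and -1.19 (SE 0.10) in the miR-23b line. It was higher than without DOX by 0.70 (SE 0.12) in the miR-137 line. In the miR-23b line that comparison gave 0.30 (SE 0.12, adjusted p = 0.0488), a call lost on leaving out each library except miR-23b without DOX replicate 1. Without miR-23b without DOX replicate 3 it was 0.20 (adjusted p = 0.252), and over the other 4 it was 0.23 to 0.34. DESeq2 (0.29, adjusted p = 0.12) and limma on log2(TPM + 1) (0.27, adjusted p = 0.126) did not call it either. R3hdm4 (r = 0.943), Cdh4 (0.942) and Meaf6 (0.931) followed Cck most closely over the 24 libraries.

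Gast (ENSMUSG00000017165, chromosome 11, plus strand, 100334407 to 100336996) encodes gastrin, the acid-stimulating hormone of gastric G cells, and had low counts, 20 to 61 a library. In the miR-137 line Gast stood at 1.86, 1.53 and 1.75 CPM after withdrawal, 2.11, 2.84 and 2.23 CPM with 7 d DOX and 1.27, 1.46 and 1.56 CPM without DOX. It stood at 1.74, 1.30 and 1.65 CPM after withdrawal, 1.51, 1.35 and 1.91 CPM with 7 d DOX and 1.29, 1.17 and 1.37 CPM without DOX in the miR-23b line. In control cells it was 2.96, 2.04 and 2.03 CPM with 7 d DOX and 1.35, 1.65 and 1.32 CPM without DOX. Libraries with DOX of the miR-137 and control lines lay above those without DOX, while those of the miR-23b line overlapped.

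The log2 fold change of Gast with DOX was 0.75 (SE 0.19) in the miR-137 line (adjusted p = 0.00151), 0.29 (SE 0.22) in the miR-23b line (adjusted p = 0.264) and 0.71 (SE 0.19) in the control line (adjusted p = 0.00345). Control with DOX replicate 1, at 2.96 CPM, was the highest of the 24 libraries, and without it the log2 fold change was 0.51 (adjusted p = 0.066). No difference between the responses passed the test, with values of 0.04 (SE 0.28) for miR-137 minus control, -0.42 (SE 0.30) for miR-23b minus control and 0.46 (SE 0.29) for miR-137 minus miR-23b. Withdrawn against 7 d DOX, Gast was lower in the miR-137 line, at -0.49 (SE 0.18, adjusted p = 0.0328), but the call was lost with DESeq2 (-0.49, adjusted p = 0.114), without a filter on low counts, and without miR-137 withdrawn replicate 2 or 3 or miR-137 with DOX replicate 2 (log2 -0.51 to -0.34). In the miR-23b line the same comparison gave 0.01 (SE 0.21). Against no DOX neither line passed the test, at 0.26 (SE 0.20) in the miR-137 line and 0.31 (SE 0.23) in the miR-23b line.

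Prodynorphin and galanin are neuropeptide precursors. Pdyn (ENSMUSG00000027400, chromosome 2, minus strand, 129686565 to 129699844) encodes prodynorphin, whose dynorphin peptides act on the kappa opioid receptor. Libraries of the miR-137 line held 53.6, 48.6 and 50.8 CPM after withdrawal, 68.9, 75.5 and 74.1 CPM with 7 d DOX and 18.0, 16.7 and 14.4 CPM without DOX. Libraries of the miR-23b line held 42.0, 47.6 and 39.3 CPM after withdrawal, 45.0, 45.7 and 40.7 CPM with 7 d DOX and 29.5, 21.2 and 28.3 CPM without DOX. Libraries of the control line held 83.4, 73.6 and 69.8 CPM with 7 d DOX and 21.9, 18.9 and 18.2 CPM without DOX. With DOX the miR-137 and control lines overlapped each other and stood well above the miR-23b line, whose libraries with DOX and after withdrawal overlapped.

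Pdyn showed the largest rise of the 8 genes in the miR-137 line, 2.15 (SE 0.09) on the log2 scale (4.44-fold), and in the control line, 1.94 (SE 0.08) (3.83-fold), against 0.76 (SE 0.09) in the miR-23b line (1.69-fold). Their adjusted p were 6.95e-22, 7.44e-21 and 9.76e-10. The miR-23b response was smaller than the control response, with a difference of -1.18 (SE 0.12, adjusted p = 6.02e-10), and the miR-137 response exceeded the miR-23b response by 1.39 (SE 0.13, adjusted p = 1.69e-11). The miR-137 and control responses differed by 0.21 (SE 0.13, adjusted p = 0.322). Pdyn is the hormone transcript whose 3′ UTR holds the miR-27b and miR-24 seed matches printed above, and their part in the result was not tested. After withdrawal it fell against 7 d DOX in the miR-137 line, with a log2 fold change of -0.51 (SE 0.07, adjusted p = 4.55e-07), whereas the miR-23b line gave -0.04 (SE 0.08, adjusted p = 0.740). Against no DOX the withdrawn cultures were higher, by 1.64 (SE 0.09) in the miR-137 line and 0.72 (SE 0.09) in the miR-23b line. The likest genes over the 24 libraries were Tmem163 (r = 0.957), Slit1 (0.956) and Ece1 (0.951).

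Gal (ENSMUSG00000024907, chromosome 19, minus strand, 3409915 to 3414544) encodes galanin, a neuropeptide that inhibits insulin release, and it varied least of the tested hormone genes. The miR-137 cells had 11.4, 10.4 and 10.2 CPM after withdrawal, 10.2, 10.4 and 10.7 CPM with 7 d DOX and 11.4, 9.97 and 9.97 CPM without DOX. The miR-23b cells had 9.07, 9.05 and 8.53 CPM after withdrawal, 12.1, 11.1 and 11.0 CPM with 7 d DOX and 10.9, 9.84 and 10.8 CPM without DOX. The control cells had 10.2, 10.6 and 10.4 CPM with 7 d DOX and 8.14, 7.86 and 8.20 CPM without DOX. Control libraries without DOX were the lowest of all groups, next above them the withdrawn miR-23b libraries, and the other 6 groups overlapped their neighbours.

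With DOX Gal passed the test in the control line and in neither miRNA line, with log2 fold changes of -0.00 (SE 0.08) in the miR-137 line (adjusted p = 0.997), 0.13 (SE 0.08) in the miR-23b line (adjusted p = 0.160) and 0.36 (SE 0.08) in the control line (adjusted p = 0.000471). On log2(TPM + 1) with limma the miR-23b value was 0.20 and passed (adjusted p = 0.00318). The miR-137 response was lower than the control response, with a difference of -0.37 (SE 0.11, adjusted p = 0.0313), and the miR-23b minus control difference was -0.24 (SE 0.11, adjusted p = 0.116). The miR-137 call was lost with DESeq2 (-0.37, adjusted p = 0.11), without a filter on low counts (-0.35), and without miR-137 with DOX replicate 1 or 2, miR-137 without DOX replicate 1, control with DOX replicate 2 or 3, or control without DOX replicate 1 or 2 (log2 -0.37 to -0.30). The miR-137 response minus the miR-23b response was -0.13 (SE 0.11). Withdrawn against 7 d DOX, Gal fell in the miR-23b line, with a log2 fold change of -0.36 (SE 0.08, adjusted p = 0.000253), and gave 0.04 (SE 0.07) in the miR-137 line. Against no DOX the values were 0.03 (SE 0.08) in the miR-137 line and -0.23 (SE 0.08) in the miR-23b line (adjusted p = 0.0300), the miR-23b call being lost with DESeq2, without a filter on low counts, and without miR-23b withdrawn replicate 3 or miR-23b without DOX replicate 1 or 3 (log2 -0.21 each). Cntnap2 (r = 0.814), Itpk1 (0.743) and Prpf18 (0.728) were the genes most like Gal over the 24 libraries.

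Sst (ENSMUSG00000004366, chromosome 16, minus strand, 23889573 to 23890958) encodes somatostatin, which inhibits the release of insulin, glucagon and gut hormones, and its counts were low, 11 to 63 a library. The miR-137 line showed 0.821, 0.763 and 0.834 CPM after withdrawal, 2.52, 2.05 and 2.23 CPM with 7 d DOX and 1.60, 1.41 and 1.62 CPM without DOX. The miR-23b line showed 0.791, 1.18 and 0.700 CPM after withdrawal, 2.88, 2.44 and 2.90 CPM with 7 d DOX and 1.42, 1.45 and 1.26 CPM without DOX. The control line showed 2.75, 2.33 and 2.13 CPM with 7 d DOX and 1.70, 2.01 and 1.27 CPM without DOX. All 6 withdrawn libraries lay below all others, and the libraries with DOX lay above all those without it.

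With DOX the log2 fold change of Sst was 0.56 (SE 0.18) in the miR-137 line (adjusted p = 0.0132), 0.98 (SE 0.18) in the miR-23b line (adjusted p = 1.84e-05) and 0.55 (SE 0.18) in the control line (adjusted p = 0.0145). DESeq2 did not call the miR-137 value (0.56, adjusted p = 0.0639) or the control value (0.55, adjusted p = 0.0741). The miR-137 call was also lost without miR-137 with DOX replicate 1 or without DOX replicate 2 (log2 0.47 and 0.49), and the control call without control with DOX replicate 1 or without DOX replicate 3 (log2 0.44 and 0.39). The responses differed by 0.01 (SE 0.26) for miR-137 minus control, 0.43 (SE 0.26) for miR-23b minus control and -0.42 (SE 0.26) for miR-137 minus miR-23b, none past the test, although limma on log2(TPM + 1) called the second (0.42, adjusted p = 0.0304). Withdrawn against 7 d DOX, Sst had the lowest log2 fold change of the 8 tested genes in both lines, -1.48 (SE 0.20) in the miR-137 line (adjusted p = 4.41e-07) and -1.61 (SE 0.21) in the miR-23b line (adjusted p = 2.35e-08). Against no DOX Sst was lower, with log2 fold changes of -0.92 (SE 0.22) in the miR-137 line (adjusted p = 0.000881) and -0.63 (SE 0.25) in the miR-23b line (adjusted p = 0.0443). The miR-23b value lost its call with DESeq2 (adjusted p = 0.101), upper-quartile scaling, no filter or a fit of its own groups, and without miR-23b withdrawn replicate 1 or 3 or miR-23b without DOX replicate 1 or 2 (log2 -0.62 to -0.51). Of the 5 delta cell markers 3 were tested, Sst among them. In the miR-137 line 3 were higher with DOX and 3 lower after withdrawal than with DOX, where 21% and 14.8% of all genes were. In the miR-23b line each comparison gave 1 higher and 1 lower. In the control line 2 were higher with DOX and 0 lower, where 18.5% and 19.3% of all genes were. Rbp4, a retinol carrier gene, averaged 13.2 CPM after withdrawal, 17.0 CPM with DOX and 7.94 CPM without DOX in the miR-137 line. Its means in the miR-23b line were 8.73, 5.48 and 7.21 CPM in that order. Casr averaged 5.33, 10.5 and 5.30 CPM in the miR-137 line and 7.09, 6.09 and 6.01 CPM in the miR-23b line. In the control line Rbp4 averaged 13.4 CPM with DOX and 8.82 CPM without it, and Casr 5.32 and 6.18 CPM. Hhex, the delta cell transcription factor gene, was at or below 0.123 CPM. The part of other cell types in the level of Sst was not tested.

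Pancreatic polypeptide (Ppy, ENSMUSG00000017316, chromosome 11, minus strand, 102099930 to 102101319) and peptide YY (Pyy, ENSMUSG00000017311, chromosome 11, minus strand, 102106676 to 102107832) are related peptides of PP cells and gut L cells. Neither passed the filter on low counts, so neither entered the main test. Ppy had 1 to 7 counts a library and 80 in all 24, with group means of 0.0999 to 0.286 CPM. Pyy had 0 to 4 counts a library and 19 in all, and 13 libraries had none. In the miR-23b line all withdrawn and all no DOX libraries had 0 Pyy counts, which allows up to 0.0588 CPM after withdrawal and 0.0542 CPM without DOX (3 counts over the group's total, counting error only). Differences in Ppy and Pyy were not assessed at this depth.

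Without DOX the lines differed in few genes. Between the miR-137 and control lines without DOX, 1 hormone gene was higher and 2 were lower, where 1.89% of all genes were higher and 0.814% lower. Between the miR-23b and control lines 3 were higher and 1 was lower, where 3.59% were higher and 2.78% lower; with limma on log2(TPM + 1), 33.7% of the calls in the second comparison were higher, against 56.3% with edgeR. Gal was higher in both miRNA lines, by 0.37 (SE 0.08) in the miR-137 line (adjusted p = 0.00941) and 0.37 (SE 0.08) in the miR-23b line (adjusted p = 0.00447), and Gip was lower in both, at -0.33 (SE 0.08, adjusted p = 0.0175) and -0.65 (SE 0.09, adjusted p = 3.3e-06). The miR-137 calls were lost without miR-137 replicate 1 or control replicate 2 for Gal (log2 0.30 and 0.35), and without miR-137 replicate 2 or control replicate 1 or 2 for Gip (-0.31 to -0.25). Sct was lower in the miR-137 line, at -0.37 (SE 0.10, adjusted p = 0.0304), but control replicate 1 held 15.3 CPM against 11.8 and 11.6 CPM in the others, and without it the value was -0.23 (adjusted p = 0.297), while leaving out any 1 miR-137 replicate also ended the call. Limma on log2(TPM + 1) called neither Sct (-0.30) nor Gip (-0.31) in the miR-137 line. In the miR-23b line Gcg was higher by 0.34 (SE 0.10, adjusted p = 0.0300) and Pdyn by 0.40 (SE 0.10, adjusted p = 0.0103), the Pdyn libraries overlapping. Both calls were lost without miR-23b replicate 1 or control replicate 2 or 3, the Gcg call also without miR-23b replicate 2 and the Pdyn call also without miR-23b replicate 3 (log2 0.24 to 0.34 for Gcg and 0.31 to 0.37 for Pdyn). Limma on log2(TPM + 1) did not call the Pdyn difference (0.39, adjusted p = 0.0643). Both responses to DOX are measured from these unequal starting levels.

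Enzymes and granule proteins that make peptide hormones moved in both directions with DOX. All 16 genes of the processing list were tested. In the miR-137 line 11 rose and 4 fell, where 21% of all genes were higher and 21.8% lower. In the miR-23b line 9 rose and 4 fell, where 28.8% were higher and 28.6% lower, and in the control line 8 rose and 4 fell, where 18.5% were higher and 19.3% lower. Their median log2 fold changes were 0.22, 0.21 and 0.05 in those lines, against medians of all genes within 0.01 of 0. Pam, the enzyme that amidates secretin, cholecystokinin, gastrin and galanin, had 516, 485 and 505 CPM with DOX and 324, 297 and 301 CPM without it in the miR-137 line. Pam had 637, 625 and 602 CPM with DOX and 297, 281 and 292 CPM without it in the miR-23b line, and 337, 326 and 325 CPM against 277, 272 and 278 CPM in the control line. The groups did not overlap in any line. Its rise of 1.10 (SE 0.03) on the log2 scale in the miR-23b line exceeded the control response by 0.84 (SE 0.05), and its rise of 0.71 (SE 0.03) in the miR-137 line did so by 0.45 (SE 0.05), with adjusted p of 4.98e-17 and 9.12e-09.

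Chgb, which encodes the granule protein chromogranin B, rose by 0.89 (SE 0.04) in the miR-137 line, 0.99 (SE 0.04) in the miR-23b line and 0.64 (SE 0.04) in the control line. Vgf, another granule protein precursor, rose by 0.73 (SE 0.05) in the miR-137 line, and its response there exceeded the control response by 0.75 (SE 0.07) and the miR-23b response by 1.03 (SE 0.07). Cpe, the carboxypeptidase that trims prohormones, rose by 0.58 (SE 0.04) in the miR-137 line, 0.68 (SE 0.04) in the miR-23b line and 0.61 (SE 0.04) in the control line. Qpct, which closes the first residue of peptides into pyroglutamate, fell in every line, with log2 fold changes of -0.90 (SE 0.08) in the miR-137 line, -0.93 (SE 0.08) in the miR-23b line and -0.56 (SE 0.08) in the control line. After withdrawal 10 of the 16 genes were lower than with DOX and none higher in the miR-137 line, where 14.8% of all genes were lower and 14.7% higher, and 12 were lower and none higher in the miR-23b line, where 25.8% were lower and 26.4% higher. Pam fell, with log2 fold changes of -0.44 (SE 0.03) in the miR-137 line and -0.68 (SE 0.03) in the miR-23b line, and so did Chgb, with -0.39 (SE 0.04) and -0.83 (SE 0.04).

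Of 20 receptor genes for these peptides only 7 passed the filter. Those tested were higher with DOX in 4, 5 and 5 cases and lower in 1, 2 and 1 cases in the miR-137, miR-23b and control lines, with median log2 fold changes of 0.33, 0.26 and 0.61. Of all genes tested 21%, 28.8% and 18.5% were higher and 21.8%, 28.6% and 19.3% lower in those lines. The somatostatin receptor gene Sstr5 rose by 0.62 (SE 0.06) in the miR-137 line, 0.26 (SE 0.06) in the miR-23b line and 0.74 (SE 0.06) in the control line, and Sstr3 by 0.45 (SE 0.05), 0.42 (SE 0.05) and 0.61 (SE 0.05). Galr1, a galanin receptor gene, fell in all 3 lines, with log2 fold changes of -0.69 (SE 0.05), -0.45 (SE 0.05) and -0.42 (SE 0.05). Glp1r, the receptor gene for the glucagon-like peptide that raises insulin release, fell in the miR-23b line, with a log2 fold change of -0.51 (SE 0.05), and its difference from the control response was -0.49 (SE 0.06, adjusted p = 5.41e-08). Gipr, the receptor gene for GIP, rose by 0.33 (SE 0.05) in the miR-137 line, 0.19 (SE 0.06) in the miR-23b line and 0.29 (SE 0.05) in the control line.

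Of 39 other peptide precursor genes 13 were tested, and with DOX 6 rose and 2 fell in the miR-137 line, 4 rose and 7 fell in the miR-23b line, and 3 rose and 1 fell in the control line. Among all genes 21% were higher and 21.8% lower in the miR-137 line, 28.8% and 28.6% in the miR-23b line, and 18.5% and 19.3% in the control line. Their median log2 fold changes were 0.24, -0.48 and 0.16 in those lines, against 1.20, 0.79 and 0.92 for the 8 hormone genes. Ins1, an insulin gene with a near-identical copy and so less certain, fell in the miR-23b line, with a log2 fold change of -0.87 (SE 0.04), but rose by 0.31 (SE 0.04) in the miR-137 line and 0.41 (SE 0.04) in the control line. Ins2, the other insulin gene and less certain for the same reason, fell in the miR-23b line, with -0.20 (SE 0.03). Ins2 rose by 0.24 (SE 0.03) in the miR-137 line and 0.16 (SE 0.03) in the control line. Iapp, the amylin gene of beta cells, fell in each line, with -0.57 (SE 0.03), -0.48 (SE 0.03) and -0.48 (SE 0.03). Npy, the neuropeptide Y gene, fell in the miR-23b line, with -0.57 (SE 0.05).

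Among 30 islet and enteroendocrine transcription factor genes 23 were tested, and with DOX 7 rose and 8 fell in the miR-137 line, 8 rose and 12 fell in the miR-23b line, and 6 rose and 6 fell in the control line. The shares of all genes that were higher were 21%, 28.8% and 18.5% in those lines, and the shares that were lower 21.8%, 28.6% and 19.3%. Their median log2 fold changes were -0.05, -0.21 and -0.03. Fev, a factor gene of serotonin neurons and endocrine progenitors, had 5.66, 5.07 and 5.60 CPM with DOX and 2.10, 2.14 and 1.84 CPM without it in the miR-137 line, 7.03, 10.1 and 9.07 and 2.20, 2.57 and 2.17 CPM in the miR-23b line, and 5.71, 4.66 and 4.37 and 2.35, 2.25 and 2.49 CPM in the control line. All libraries with DOX lay above all those without it. The log2 fold changes were 1.41 (SE 0.15), 1.90 (SE 0.14) and 1.05 (SE 0.15), and the miR-23b response exceeded the control response by 0.85 (SE 0.22, adjusted p = 0.00194). Crem, whose protein binds the cAMP response element, rose by 0.98 (SE 0.08), 0.78 (SE 0.09) and 0.74 (SE 0.09) in the miR-137, miR-23b and control lines, and Etv1, which was among the genes most like Sct, rose by 0.54 (SE 0.03), 0.81 (SE 0.03) and 0.48 (SE 0.03). Atf3, a stress-induced factor gene, fell, with log2 fold changes of -0.63 (SE 0.10) in the miR-137 line and -1.28 (SE 0.11) in the miR-23b line. Its miR-23b response minus the control response was -0.94 (SE 0.15, adjusted p = 5.29e-06), while its miR-137 response minus the control response did not pass the test. Rfx6, which beta cells and enteroendocrine cells need, showed a miR-23b response below that of control cells, with a difference of -0.62 (SE 0.05, adjusted p = 3e-12).

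Over the 24 libraries the hormone genes fell into no single pattern. The log2 CPM of Gcg and Pdyn had a Pearson's r of 0.879 and that of Sct and Cck one of 0.856, while that of Sct and Gip was 0.00947 and that of Gcg and Sst -0.145. These are descriptions of the same 24 libraries in 8 groups, with shared depths and group differences.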

How the data were processed

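RNA-seq libraries of polyA RNA were made from 24 cultures in 8 groups of 3. Read counts per gene are used as deposited, 1 table per library, and the values did not differ from the deposited series table. TPM values were deposited by the authors in 1 series table. Tools in the submitters' processing notes are STAR 2.4.0g, HTSeq 0.6.1, featureCounts, RSEM 1.2.19 and cutadapt 1.3, and builds are GRCm38 and mm10; the tool behind each table is not given in the sources used. Reads in no gene, 9.62 to 12.1%, and reads with several alignments, 25.4 to 27.7%, were left out of library sizes, and the handling of multimapping reads lowers genes with near-identical copies.

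Counts were scaled by TMM and tested with edgeR 4.0.16 (R 4.3.3), quasi-likelihood test, 1 fit of all 24 libraries with 8 group means, filterByExpr leaving 14866 genes, 12 comparisons and Benjamini-Hochberg adjustment within each at 0.05. The SE of a log2 fold change is its size divided by the square root of F. Alternatives were DESeq2 1.42.0, upper-quartile scaling, no filter, a replicate block, fits of a comparison's own groups, limma 3.58.1 on log2(TPM + 1), and leaving out each library. The procedure was tested on simulated data. Genes of the 4 other lists were named by size: up to 4 called genes a comparison with at least 5 CPM in the higher group. The 3 most alike genes were sought for hormone genes with a mean of at least 5 CPM; some of the genes found by these rules are not reported here. The hormone genes and lists were chosen with earlier results of these data known. Replicates differed by more than sampling noise, with a chi-square per gene of at least 1.53. It was 3.72 and 4.11, the highest, between control with DOX replicate 1 and replicates 2 and 3. Between miR-137 withdrawn replicates 1 and 2 it was 3.82. PolyA libraries do not measure mature miRNAs, and floors cover counting error only.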

Additional observations from a re-analysis of the deposited data

Results flagged for a closer look

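For 7 d DOX against no DOX, 12 values of hormone genes stood out because the effect of the same treatment differed between 2 lines by the test of the difference itself (edgeR's quasi-likelihood test, adjusted over 14866 genes, 3 libraries a group). The miR-137 response minus the control response was 0.51 for Gcg, 0.59 for Gip, -0.38 for Sct and -0.37 for Gal on the log2 scale. The miR-23b response minus the control response was 0.82 for Sct, -0.56 for Gcg, -0.34 for Gip and -1.18 for Pdyn. The miR-137 response minus the miR-23b response was 1.39 for Pdyn, 1.07 for Gcg, 0.93 for Gip and -1.20 for Sct. Among all genes 5.9% were higher and 4.78% lower in the first comparison. The shares were 18.1% and 19.4% in the second, and 18.4% and 16.8% in the third. Sct differed in opposite directions from the control response in the miR-137 line (lower) and the miR-23b line (higher), while Gcg and Gip differed upward in the miR-137 line and downward in the miR-23b line. Against control, the miR-137 calls of Sct and Gal were each lost on leaving out any of 7 of 12 libraries. The miR-23b call of Gip was lost for 4 of 12. Each of these calls was also lost under at least 1 other alternative. The control libraries with DOX, which showed more genes with at least 1 count than the others (20898 to 21066 against at most 20336), enter the 8 differences from the control response but not the 4 between the miRNA lines, and their part in the result was not tested.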

How the results depend on the processing

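Of 96 log2 fold changes tested, 64 passed the threshold, 48 of them under every alternative run and 16 with at least 1 lost call; of the 32 that did not pass, 6 passed under at least 1 alternative, and none changed direction while called. The number of hormone genes passing in the miR-23b line withdrawn against no DOX was 7, 4 with DESeq2 and 4 to 6 on leaving out 1 library. For the miR-137 against the control line without DOX it was 3, 5 without a filter, 1 with limma on log2(TPM + 1) and 1 to 3 on leaving out 1 library. On leaving out 1 library it was 2 to 4 for the miR-137 minus control response (4 with all), and 2 to 4 for the miR-23b against the control line without DOX (4 with all). The cause was not tested. With a replicate block the counts were 7, 5 and 8 for DOX in the miR-137, miR-23b and control lines, 4, 4 and 4 for the differences of response, 6 and 6 for withdrawn against 7 d DOX and 6 and 7 for withdrawn against no DOX in the miR-137 and miR-23b lines, and 3 and 4 for those lines against the control line, the same as without it. Over 84 same-numbered pairs the deviations from group means correlated at -0.0661 to 0.183 (median 0.0274), 3 of them over 0.1. The correlations were low, but 20 of 24 libraries correlated best with libraries of their own number. Whether same-numbered libraries share a batch was not tested. Gast and Sst, at 11 to 63 counts a library, are limited by depth, and Ppy and Pyy did not pass the filter on low counts.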
